A study of Mus musculus with 4 samples.

Results

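The Snail, Zeb and Twist transcription factor genes and their close partners direct epithelial-to-mesenchymal transition (EMT), and 9 of them are described here: Snai1, Snai2, Zeb1, Zeb2, Twist1, Twist2, Tcf3, Tcf4 and Hmga2. They were chosen by gene symbol, not by a threshold on their values, and are 9 of the 21971 genes in the count table. Earlier results of these data were known when they were chosen. All 9 were found through the Ensembl identifiers of these symbols, and 8 of them passed the filter on low counts, the exception being Twist1.

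The cells were NMuMG, an epithelial line from mouse mammary gland that undergoes EMT when given TGFβ. One line stably expressed TRF1ΔN, a mutated human form of the telomere protein TRF1, and served as the comparison line. The other stably expressed Vp16-TRF1ΔN, the same protein with the Vp16 transcription activation domain, which the series describes as raising telomeric TERRA-like RNA. RNA from each line was sequenced at 0 h without TGFβ and after 24 h with TGFβ at 5 ng/ml, which gives 4 groups of 1 library each. Every cell therefore carried a TRF1ΔN transgene, and no parental line and no untreated 24 h culture is among the groups, so TGFβ and the 24 h that passed cannot be told apart. Neither the transgenes' promoter nor the clonality of each line is given in the sources used.

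Snail, Zeb and Twist proteins are DNA-binding repressors and activators that switch epithelial cells toward a mesenchymal state. Snail and Zeb proteins carry zinc fingers that bind E-boxes of the form CACCTG or CAGGTG, among them sites in the E-cadherin promoter. Twist proteins are basic helix-loop-helix (bHLH) factors that bind E-boxes as dimers with E proteins, the products of Tcf3, Tcf4 and Tcf12, while Id proteins hold E proteins in dimers that cannot bind DNA. Hmga2 is an architectural chromatin protein known to help TGFβ and Smads induce Snai1 and Twist1. Tcf3 and Tcf4 here are the E protein genes, not the Wnt effector genes Tcf7l1 and Tcf7l2 that are sometimes called by the same names.

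The libraries held between 35418985 and 45983910 counts over genes, and a count of 3, used as the floor for detection, corresponded to between 0.0630 and 0.0875 CPM (counts scaled to library size, here with TMM factors). Of the 12 mammary epithelial markers listed, 10 were analysed and tested, of which 4 rose (Krt8, Krt18, Jup and Cldn4), 3 fell (Cdh1, Krt19 and Ocln) and 3 did not pass (Dsp, Krt7 and Epcam). Their sum was 7216, 7277, 6978 and 7111 CPM, listed as TRF1ΔN before and after TGFβ, then Vp16-TRF1ΔN before and after. That order is used throughout. Krt19 had 74570, 3481, 71026 and 9254 counts, Krt7 had 116, 82, 39 and 9, and Epcam had 18, 11, 4 and 4. Of the 8 fibroblast markers listed, 6 were analysed and 3 tested, all of which rose with TGFβ. Their summed level was 1.36, 26.8, 1.97 and 13.1 CPM, with Col1a1 at 35, 778, 46 and 328 counts, Pdgfrb at 0, 217, 1 and 36, and Dcn and Col3a1 at 0 to 2. Of the immune markers, 5 of 7 were analysed and their sum was 3.72, 5.44, 3.67 and 3.85 CPM, with Ptprc at 1 to 7 counts and Csf1r at 1, 101, 2 and 21. Of the endothelial markers, 4 of 6 were analysed and their sum was 4.53, 2.11, 4.87 and 1.98 CPM, with Pecam1 at 1 to 3 counts, Cdh5 at 4, 50, 5 and 24, and Egfl7 at 209, 34, 202 and 42. Of the adipocyte markers, 3 of 5 were analysed and their sum was 0.399, 0.0713, 0.626 and 0.0584 CPM. The part of other cell types in the results was not tested. Mitochondrially encoded genes took 10.2%, 13.3%, 11.4% and 15.7% of the counts, and leaving them out before scaling changed none of the calls on the members given below.

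TGFβ was accompanied by higher levels of the Snail and Zeb genes in both lines. Averaged over the lines, 6 of the 8 members tested rose (Snai1, Snai2, Zeb1, Zeb2, Tcf4 and Hmga2), 1 fell (Twist2) and 1 did not pass (Tcf3). The test was edgeR's quasi-likelihood test with Benjamini-Hochberg adjustment over all 14305 genes tested, in an additive model with 1 residual degree of freedom. In that test 23.1% of all genes rose and 25.4% fell, or 48.5% in either direction, so being called is common in these data. With upper-quartile factors 3959 genes rose and 3274 fell, against 3305 and 3631 here, and DESeq2's Wald test called 2284 and 2626. The members were picked as known EMT factors, with earlier results of these data known, so their rise against all genes is no independent support. Their median change was 1.24 on the log2 scale, against -0.02 over all tested genes at 1 CPM or more. Such values come from bulk RNA, in which a change in the number of cells with an RNA cannot be told apart from a change in the RNA per cell. Each line was sequenced at each time in 1 library, with no replicate culture. The p-values are therefore set against the difference between the lines' responses and a spread pooled over all genes, not against replicate cultures. That difference may be partly technical.

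**Figure D1:**
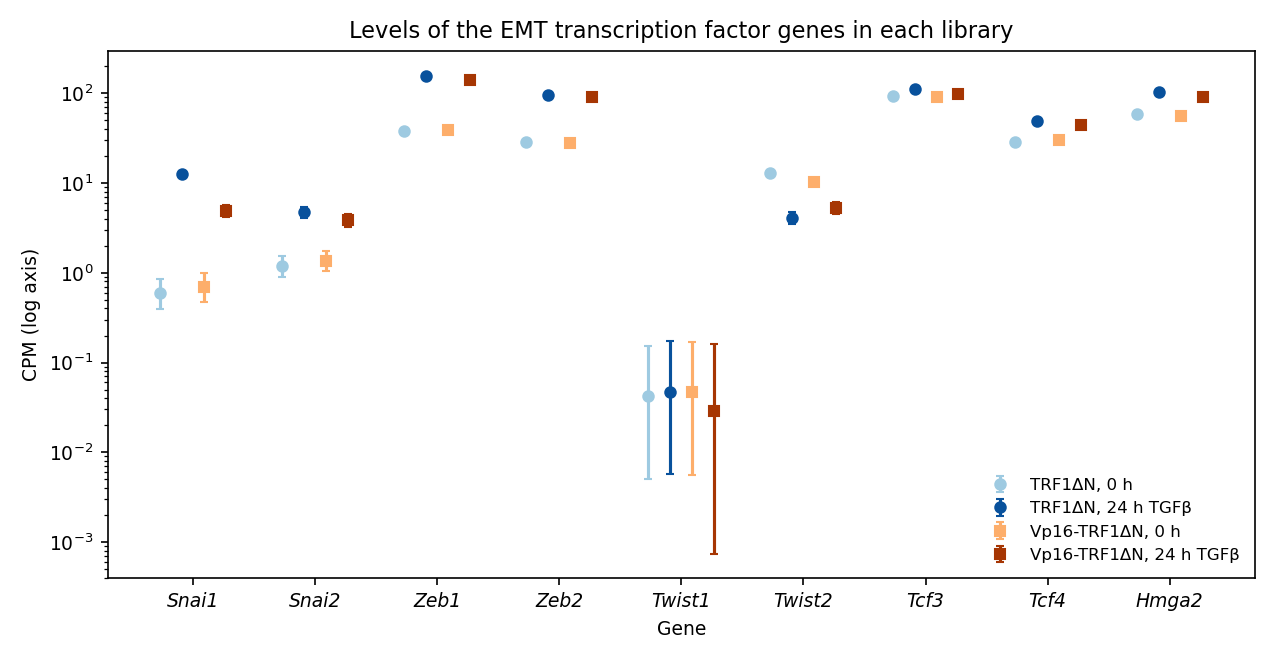
CPM on a log axis for the 9 genes in the 4 libraries, with exact 95% Poisson intervals that cover counting error only. Snai1, Snai2, Zeb1 and Zeb2 are higher at 24 h in both lines, Twist2 is lower, and Twist1 has only 1 or 2 counts in each library.

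Snai1, a zinc finger repressor of Cdh1 (ENSMUSG00000042821, GRCm38 chromosome 2, 167538195 to 167542814, plus strand), had 28, 530, 30 and 167 counts, or 0.588, 12.6, 0.696 and 4.87 CPM. Both 0 h libraries were low and close to each other, and both 24 h libraries were higher, with the TRF1ΔN library well above the Vp16-TRF1ΔN one. Snai1 rose by 3.67 ± 0.41 (SE) on the log2 scale averaged over the lines (adjusted p = 0.00407), which is rank 214 from the top of the 14305 genes tested. Within the lines, which allow no test, it was 21.4-fold higher after TGFβ in TRF1ΔN (95% counting interval 14.7 to 32.6) and 7.00-fold higher in Vp16-TRF1ΔN (4.73 to 10.7). These intervals do not overlap, but they cover counting error alone. Per kilobase of exon, Snai1 stood at percentile 16.3 of the tested genes in TRF1ΔN at 0 h and 61.3 at 24 h, and at 17.6 and 40.0 in Vp16-TRF1ΔN.

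Snai2 (Slug, chromosome 16, 14705852 to 14709385, plus strand), a Snail paralog active in mammary basal cells, had 56, 198, 59 and 131 counts, or 1.18, 4.70, 1.37 and 3.82 CPM. The 24 h libraries were again both above the 0 h libraries. It rose by 1.74 ± 0.23 (adjusted p = 0.00548). The ratio was 4.0-fold in TRF1ΔN (2.96 to 5.48) and 2.79-fold in Vp16-TRF1ΔN (2.04 to 3.86), with overlapping intervals.

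The make-up of the Snail family shifted within the libraries, a measure that does not depend on how libraries are scaled. Snai3, the third Snail gene, is no member and was added after its values were seen. It had 146, 62, 133 and 61 counts. Snai3 took 63.5% of the counts of Snai1, Snai2 and Snai3 together in TRF1ΔN at 0 h (exact 95% binomial interval 56.9 to 69.7), and 59.9% in Vp16-TRF1ΔN at 0 h (53.1 to 66.4). After TGFβ its share was 7.85% (6.07 to 9.95) and 17.0% (13.3 to 21.3). Snai1 went from 12.2% (8.24 to 17.1) to 67.1% (63.7 to 70.4) in TRF1ΔN, and from 13.5% (9.31 to 18.7) to 46.5% (41.3 to 51.8) in Vp16-TRF1ΔN. Since the annotated exon lengths of Snai1 and Snai2 differ (1621 and 2021 bases), their levels were also set against each other per kilobase. Snai1 per kilobase was 0.623 and 0.634 times Snai2 at 0 h in the respective lines, and 3.34 and 1.59 times Snai2 at 24 h.

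Zeb1, a zinc finger and homeodomain repressor of epithelial genes (chromosome 18, 5591860 to 5775467, plus strand), had 1790, 6605, 1680 and 4775 counts, or 37.6, 157, 39.0 and 139 CPM. The libraries fell into 2 levels by time, with little distance between lines at either. Zeb1 rose by 1.95 ± 0.08 (adjusted p = 0.000858), 4.18-fold in TRF1ΔN (3.96 to 4.4) and 3.57-fold in Vp16-TRF1ΔN (3.38 to 3.78). Zeb2, its paralog (chromosome 2, 44983632 to 45117395, minus strand), had 1358, 4027, 1217 and 3083 counts, or 28.5, 95.7, 28.2 and 90.0 CPM. It rose by 1.71 ± 0.07 (adjusted p = 0.000858), with ratios of 3.36 (3.16 to 3.57) and 3.19 (2.98 to 3.41) that overlap. Of the members, Zeb2 had the most similar ratios in the 2 lines.

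Zeb1 made up 56.9% of the Zeb1 and Zeb2 counts in TRF1ΔN at 0 h (55.1 to 58.6) and 62.1% at 24 h (61.2 to 63.0). In Vp16-TRF1ΔN it made up 58.0% (56.2 to 59.8) and 60.8% (59.7 to 61.8). The shift toward Zeb1 was thus in the same direction in both lines and small beside that among the Snail genes. The antisense gene Zeb2os, which shares exon sequence with Zeb2, had 2, 8, 6 and 11 counts. Without a stated strand setting, reads of such pairs cannot be told apart, but all overlapping genes of Zeb1 and Zeb2 that were counted held under 0.3% of the respective member's counts.

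Twist1 had 2, 2, 2 and 1 counts, under the floor of 3 counts in every library, so no ratio is given and no change was detectable at this depth. Twist2 (chromosome 1, 91801461 to 91848028, plus strand), the related bHLH factor, was the Twist gene present and had 617, 170, 446 and 180 counts, or 13.0, 4.04, 10.3 and 5.25 CPM. Both 0 h libraries were above both 24 h libraries, in the opposite order from the Snail and Zeb genes. On the log2 scale Twist2 fell by 1.33 ± 0.21 (adjusted p = 0.00877). It was 0.312 times its 0 h level in TRF1ΔN (0.262 to 0.370) and 0.508 times in Vp16-TRF1ΔN (0.425 to 0.605). The antisense gene Gm29100 overlaps 1477 bases of Twist2 exons and had 37, 16, 40 and 24 counts, so that strand-blind counting could touch Twist2 more than the other members.

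The E protein genes, partners of Twist, changed less. Tcf3 (chromosome 10, 80409514 to 80433647, minus strand) had 4449, 4636, 3887 and 3393 counts, or 93.4, 110, 90.2 and 99.0 CPM, with a log2 change of 0.19 ± 0.07 that missed the threshold (adjusted p = 0.0793). It did pass with upper-quartile scaling (0.25, adjusted p = 0.0310). Tcf4 (chromosome 18, 69343356 to 69689079, plus strand) had 1364, 2067, 1295 and 1524 counts, or 28.6, 49.1, 30.0 and 44.5 CPM, and rose by 0.67 ± 0.09 (adjusted p = 0.00548). Tcf12, the remaining E protein gene, rose by 0.38 ± 0.07 (adjusted p = 0.0131). Tcf4 took 11.4% of the counts of the 3 E protein genes in TRF1ΔN at 0 h (10.8 to 12) and 14.7% at 24 h (14.1 to 15.3), and 11.7% (11.1 to 12.3) and 14.2% (13.5 to 14.9) in Vp16-TRF1ΔN.

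The Id genes, inhibitors of the E proteins, were lower after TGFβ. Id1 had 6894, 1113, 5973 and 1189 counts, Id2 had 16774, 1673, 16155 and 3532, and Id3 had 2589, 1452, 2454 and 1392, while Id4 had 0 to 12 counts and was not tested. Id1 fell by 2.22 ± 0.13, Id2 fell by 2.50 ± 0.33 and Id3 fell by 0.57 ± 0.08 (adjusted p = 0.00121, 0.00589 and 0.00638). The Id genes together held 68.7% of the counts of Id and E protein genes in TRF1ΔN at 0 h (68.2 to 69.2) and 68.9% in Vp16-TRF1ΔN at 0 h (68.5 to 69.4). After TGFβ they held 23.2% (22.6 to 23.8) and 36.3% (35.5 to 37.0). Per kilobase of exon, Id RNA went from 9.22 to 1.45 times E protein RNA in TRF1ΔN and from 9.46 to 2.56 times in Vp16-TRF1ΔN. Of the 11 bHLH partners and Id inhibitors listed, 6 were tested, 2 rose and 3 fell. The other riser was Bhlhe40, a bHLH repressor, at 2.53 ± 0.28 (adjusted p = 0.00393), and Bhlhe41 did not pass (-0.09 ± 0.09).

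**Figure D2:**
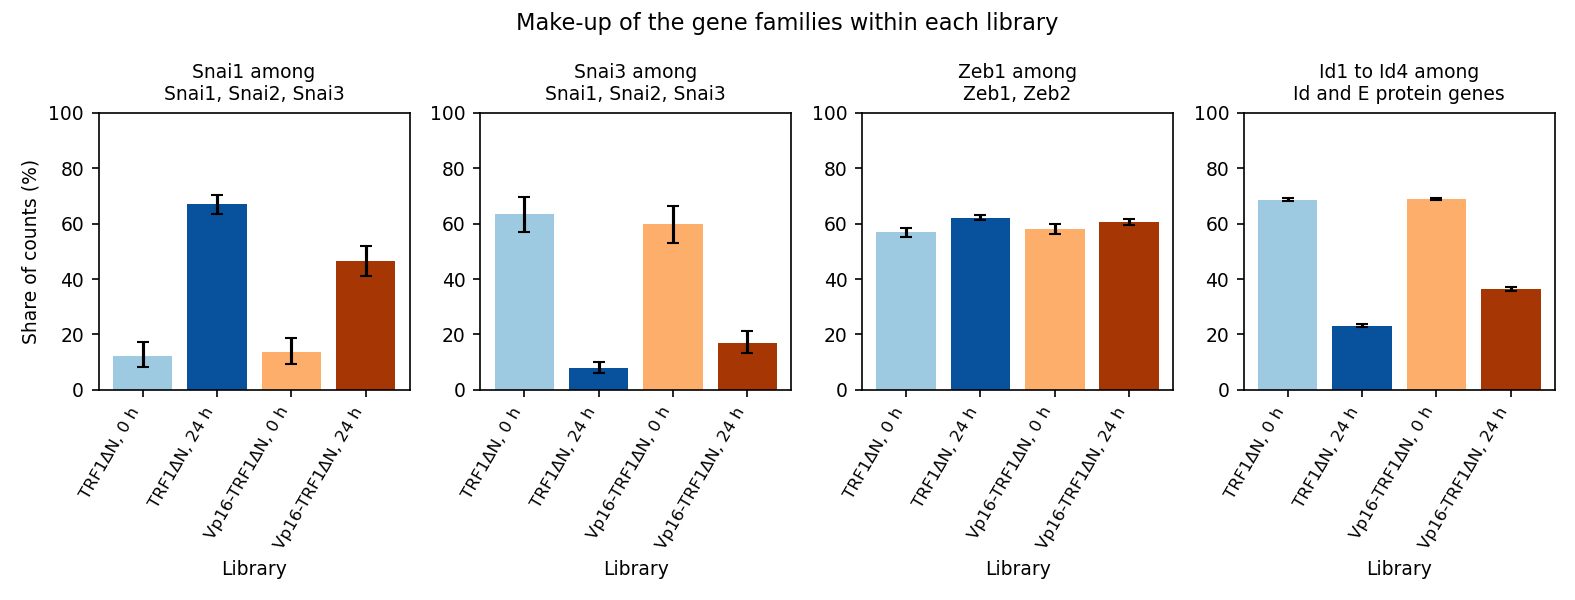
Share of counts (%) within each library for Snai1 and Snai3 among the 3 Snail genes, Zeb1 among the Zeb genes, and Id1 to Id4 among Id and E protein genes (Tcf3, Tcf4, Tcf12), with exact 95% binomial intervals. The Snai1 share is 12.2% and 13.5% at 0 h and 67.1% and 46.5% at 24 h, and the Id share drops from 68.7% and 68.9% to 23.2% and 36.3%.

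Hmga2 (chromosome 10, 120361275 to 120476469, minus strand) had 2777, 4382, 2410 and 3138 counts, or 58.3, 104, 55.9 and 91.6 CPM. Both 24 h libraries were above both 0 h libraries. It rose by 0.77 ± 0.07 (adjusted p = 0.00261), 1.79-fold in TRF1ΔN (1.70 to 1.87) and 1.64-fold in Vp16-TRF1ΔN (1.55 to 1.73). Its relative Hmga1 went the other way, with 191, 37, 181 and 41 counts and a log2 change of -2.0 ± 0.22 (adjusted p = 0.00369). Of the 12 genes on the list of Hmga and let-7 targets, all were tested, 2 rose (Arid3a at 3.13 and Nras at 0.46), 3 fell (Trim71 at -3.31, Hmga1 and Hras at -0.58) and 7 did not pass. The median was 0.07. The miRNA hairpins listed include the miR-200, miR-34 and let-7 families that target Zeb, Snai1 and Hmga2 mRNAs. No miR-200 hairpin was among the genes counted, so nothing can be said of that family. The hairpins that were counted had at most 12 counts in a library and were not tested. Mature miRNAs were not measured.

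Levels within a library were ordered by CPM per kilobase of annotated exon, a measure that depends on annotated lengths. In TRF1ΔN at 0 h Tcf3 (23.1) was highest, followed by Hmga2 (8.61), Twist2 (4.08), Zeb1 (3.66), Zeb2 (1.43), Tcf4 (1.05), Snai2 (0.582), Snai1 (0.363) and Twist1 (0.0258). In Vp16-TRF1ΔN at 0 h it was Tcf3 (22.3), Hmga2 (8.26), Zeb1 (3.80), Twist2 (3.26), Zeb2 (1.42), Tcf4 (1.10), Snai2 (0.677), Snai1 (0.429) and Twist1 (0.0285). Zeb1 thus stood above Twist2 in this library and below it in TRF1ΔN at 0 h, where their counting intervals overlapped, as did those of Snai1 and Snai2 in both 0 h libraries. At 24 h in TRF1ΔN the order was Tcf3 (27.3), Hmga2 (15.4), Zeb1 (15.3), Snai1 (7.77), Zeb2 (4.80), Snai2 (2.33), Tcf4 (1.79), Twist2 (1.27) and Twist1 (0.0292). Hmga2 and Zeb1 were within counting error of each other at 24 h. In Vp16-TRF1ΔN at 24 h the values were 24.5 for Tcf3, 13.6 for Zeb1, 13.5 for Hmga2, 4.51 for Zeb2, 3.01 for Snai1, 1.89 for Snai2, 1.65 for Twist2, 1.62 for Tcf4 and 0.0179 for Twist1, where the intervals of Zeb1 and Hmga2 and those of Snai2, Twist2 and Tcf4 overlapped. Per kilobase, Snai1 thus stood above Zeb2 in the TRF1ΔN line after TGFβ and below it in the Vp16-TRF1ΔN line. This order rests on the annotated exon lengths, 1621 bases for Snai1 and 19942 for Zeb2. In CPM, Zeb2 was above Snai1 in every library. With 1 library a group there is no spread over samples to set these orders against.

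The lines were next compared for the same genes. Averaged over the times, none of the 8 members tested differed between the lines in edgeR's quasi-likelihood test, where 0% of the 14305 genes did. No member had an unadjusted p under 0.05 either, against 12.4% of all genes, and DESeq2's Wald test called no member. Snai1 had the largest difference, -0.91 ± 0.39 on the log2 scale, lower in Vp16-TRF1ΔN. Its 95% interval was -1.96 to 0.15 (adjusted p = 0.414). This average comes from the additive model, where libraries with more counts weigh more, and is not the plain mean of the 2 times. Taken singly, the log2 difference of Snai1 was 0.23 at 0 h and -1.36 at 24 h. Zeb1 stood at -0.06 (-0.28 to 0.16) and Zeb2 at -0.05 (-0.23 to 0.13). The interval for Snai2 ran from -0.68 to 0.51, which does not show that its levels were alike.

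At 0 h the members were close between lines and 0 of 8 reached 2-fold, the size counted for comparisons without a test, where 0.178% of 11777 genes at 1 CPM or more were counted as higher in Vp16-TRF1ΔN and 0.416% as lower. Snai1 was 1.18-fold higher in Vp16-TRF1ΔN (0.684 to 2.06) and Snai2 1.16-fold (0.794 to 1.71). Twist2 was the 1 member whose counting interval excluded equality, at 0.799 times its TRF1ΔN level (0.706 to 0.904). Over all genes 41.8% of intervals excluded equality.

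At 24 h Snai1 was the 1 member counted, among 1.18% of genes counted as lower in Vp16-TRF1ΔN and 2.11% as higher. It stood at 0.387 times its TRF1ΔN level (0.323 to 0.461), rank 69 from the bottom of 11777 genes. Zeb1 was at 0.888 (0.855 to 0.922), Zeb2 at 0.940 (0.897 to 0.986), Hmga2 at 0.880 (0.840 to 0.921), Tcf4 at 0.906 (0.847 to 0.968) and Tcf3 at 0.899 (0.860 to 0.940). Snai2 was at 0.813 with an interval that includes equality (0.647 to 1.02), and Twist2 was higher, at 1.30 (1.05 to 1.61). Intervals of 7 of the 8 members excluded equality, as did 59.2% over all genes, a share not matched for count depth. The 4 construct rows also differed between the libraries. The row named TRF1DN had 1863, 7798, 123 and 159 counts, VP16 had 0, 1, 15 and 27, higher in the line labelled Vp16-TRF1ΔN, Vec_part1 had 422, 1132, 32 and 33, and Vec_part2 had 14844, 16312, 5549 and 4352. The part of transgene level in the Snai1 difference was not tested.

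**Figure D3:**
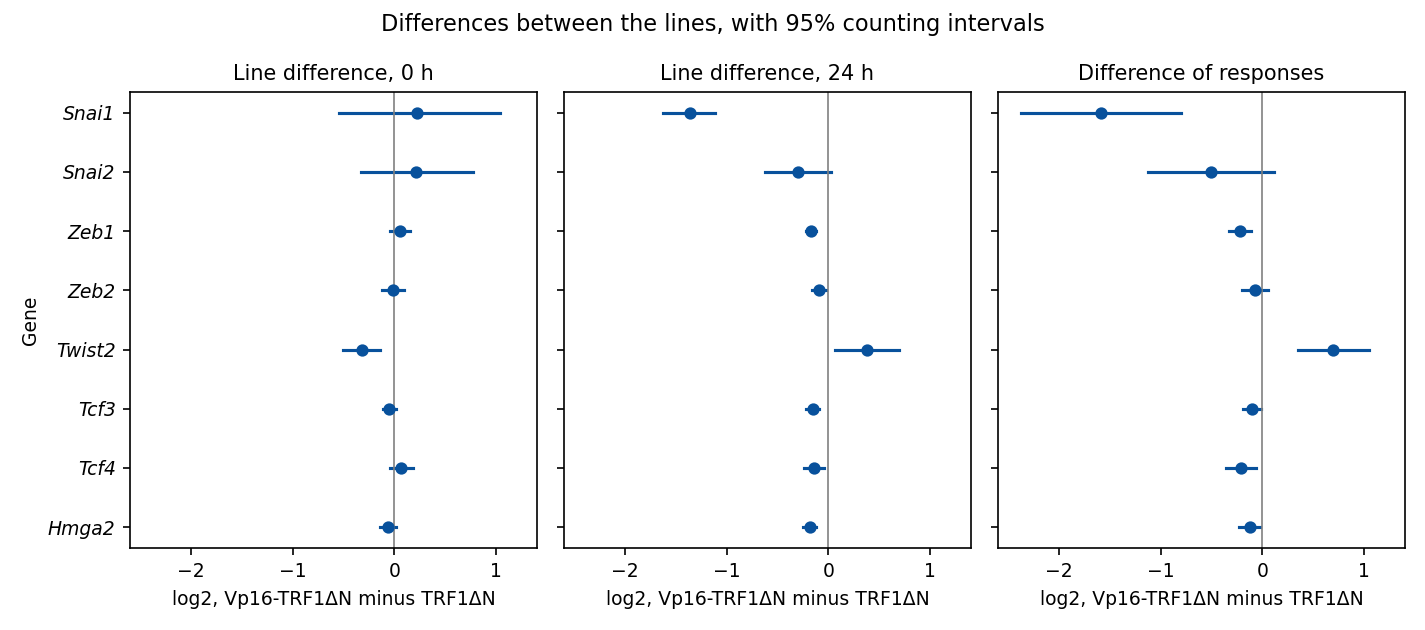
Difference of Vp16-TRF1ΔN from TRF1ΔN on the log2 scale for the 8 members at 1 CPM or more, at 0 h, at 24 h and as the difference of their TGFβ responses, with 95% counting intervals as lines. Snai1 lies at -1.36 at 24 h and -1.59 as a difference of responses, and Twist2 lies on the other side of 0 at 0.38 and 0.70.

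The responses themselves were smaller in Vp16-TRF1ΔN for all 6 members that rose. Over all risen genes at 1 CPM or more, 68.7% had a smaller ratio in that line, so the direction alone is common. The difference of responses has no test. Snai1 had -1.59 (-2.37 to -0.80), rank 42 from the bottom of 11777 genes, and was the 1 member counted at 2-fold or more, among 0.866% of genes counted as lower and 1.68% as higher. Among the 324 genes at 1 CPM or more that rose at least 4-fold on average, 19.8% had a ratio smaller by at least 1 on the log2 scale in Vp16-TRF1ΔN, as Snai1 did.

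The other members lay nearer 0. Zeb1 had -0.22 (-0.33 to -0.11), Tcf4 -0.21 (-0.36 to -0.07), Hmga2 -0.12 (-0.23 to -0.02) and Tcf3 -0.10 (-0.19 to -0.01). Zeb2 at -0.07 (-0.21 to 0.06) and Snai2 at -0.51 (-1.12 to 0.11) had intervals that include 0. Twist2, the member that fell, had 0.70 (0.35 to 1.05), a fall nearer 0 in Vp16-TRF1ΔN, where 63.3% of all fallen genes were also nearer 0. Of the 8 members, 6 had intervals that exclude 0, against 41% of all genes. Such intervals narrow as counts rise, and genes were not matched for depth. These shares, here and at 0 h and 24 h above, therefore do not compare the sizes of differences.

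Counted per line at 2-fold or more, 4 members were higher after TGFβ in TRF1ΔN (Snai1, Snai2, Zeb1 and Zeb2) and 1 was lower (Twist2), where 8.4% and 10.9% of all genes were counted. In Vp16-TRF1ΔN the same 4 were higher and none was lower, where 6.92% and 9.09% were counted, with Twist2 just short of 2-fold at -0.97 on the log2 scale.

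**Figure D4:**
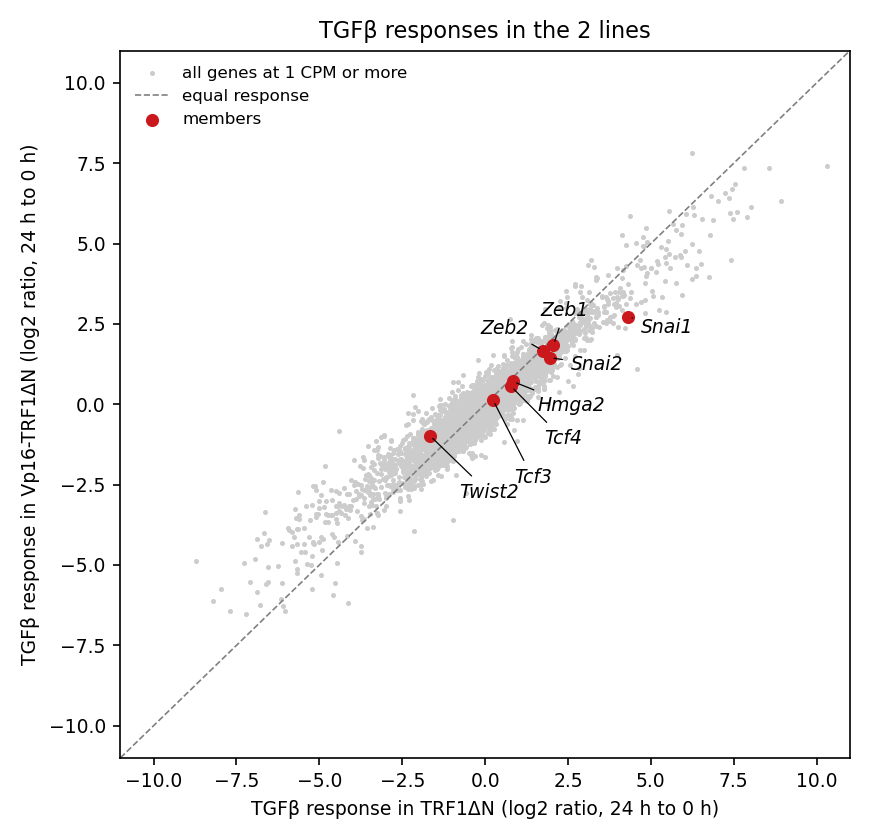
TGFβ response (log2 ratio of 24 h to 0 h, prior count of 2) in TRF1ΔN on the x axis and Vp16-TRF1ΔN on the y axis, for 11777 genes at 1 CPM or more in grey and 8 members in red, with the line of equal response dashed. Snai1 lies below the line, at 4.31 and 2.73, while Zeb2 (1.75 and 1.67) lies near it.

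The genes with the most similar pattern over the 4 libraries were found by the Euclidean distance of log2 CPM after each gene's mean was subtracted, among 9679 or 9680 protein-coding genes at 5 CPM or more. Nearest to Snai1 were Ltbp2, which encodes a latent TGFβ binding protein (distance 0.308, with 102, 1601, 111 and 685 counts), Cdk5r1 (0.327) and Btbd11 (0.333). Nearest to Snai2 were Klhdc8a (0.105), Map1lc3a (0.116) and Myo7a (0.124), and nearest to Zeb1 were Pcdh19 (0.0804), Msn, which encodes the actin linker moesin (0.0987), and Apob (0.101). Palmd (0.0713), Klhl26 (0.0900) and Setd7 (0.0922) were nearest to Zeb2. Twist2 was nearest to the serotonin receptor gene Htr1b (0.0896), Mcrip2 (0.119) and the EGF family ligand gene Areg (0.144). Hmga2 was nearest to Tgfb1, the TGFβ1 ligand gene (0.0213, with 1471, 2324, 1277 and 1692 counts), Mapkbp1 (0.0276) and Zfp46 (0.0314). Tcf3 was nearest to Sympk (0.00939), Zfp410 (0.0160) and Helz (0.0184), and Tcf4 to Ogfr (0.0183), Dusp16 (0.0198) and Tmem104 (0.0211). With 4 libraries such neighbours describe these libraries and no more.

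Lists of partners and regulators of the factors were counted against the 23.1% of all genes that rose and the 25.4% that fell. Of 23 corepressors and chromatin partners of Snail and Zeb, 8 rose (34.8%), 6 fell (26.1%) and 9 did not pass, shares not far from those over all genes, with a median of 0.09 (list medians are over tested genes at 1 CPM or more). The lysyl oxidase-like genes Loxl2 (1.57) and Loxl3 (1.09), whose products stabilize Snai1 protein, and Wtip (0.81) rose most, and the Polycomb gene Suz12 (-0.85), the histone methyltransferase gene Suv39h1 (-0.77) and Limd1 (-0.55) fell most. Of 23 tested regulators of the stability and localization of these proteins, 10 rose (43.5%), 6 fell (26.1%) and 7 did not pass, with a median of 0.08. Usp27x (1.05), a deubiquitinase of Snai1, Csnk1e (0.85) and the ubiquitin ligase gene Btrc (0.82) were highest, and the phosphatase genes Ctdspl (-1.59) and Ctdsp1 (-0.47) and the ubiquitin ligase gene Siah1b (-0.61) lowest. Of 19 tested Smads and inducers 11 rose (57.9%) and 1 fell (5.26%), with a median of 0.41. Sox4 (1.31), Sox9 (1.17) and the actin-regulated coactivator gene Mrtfa (0.91) were highest, and Egr1 (-0.61) fell.

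Genes that oppose Snail and Zeb or mark the epithelial state they repress, transcription factors and the Esrp splicing factors, were mostly lower. Of 10 tested, 7 fell, 1 rose and 2 did not pass, with a median of -0.60, against 25.4% of all genes that fell. These genes were listed for the epithelial state, with earlier results of these data known, so their direction is no independent support. Cebpa fell by 3.03 ± 0.26, with 2097, 154, 2707 and 365 counts, Foxa2 fell by 1.84 ± 0.33, with 3105, 480, 3385 and 1164 counts, and Grhl1 fell by 1.01 ± 0.22 (adjusted p = 0.00245, 0.0127 and 0.0225). Gata3, a luminal mammary factor, was the riser (1.65 ± 0.23, adjusted p = 0.00677). Factors best known as Zeb1 antagonists were scarce before TGFβ: Grhl2 had 33, 10, 38 and 3 counts, Ovol2 had 0 to 4, and Ovol1 had 0 or 1. The splicing factor gene Esrp1, a Zeb1 target, had 0 to 3 counts, while its paralog Esrp2 had 1739, 1141, 1530 and 887 and fell by 0.44 ± 0.07 (adjusted p = 0.0103).

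Genes listed as epithelial targets repressed by Snail or Zeb went both ways. Of 28 tested, 13 fell (46.4%, against 25.4% of all genes), 9 rose (32.1%, against 23.1%) and 6 did not pass, with a median of -0.72. The list was chosen for repression, so its share of falls is no independent support. Its risers include Cdh5 (4, 50, 5 and 24 counts), which is also among the endothelial markers above. Krt19 (-3.42), Muc1 (-3.37) and the tight junction scaffold gene Tjp3 (-2.81) fell most. Crb3 and Spint2, shown for their sequences, were chosen after their values were seen. Cdh1 had 17416, 4515, 15872 and 5680 counts and fell by 1.46 ± 0.16 (adjusted p = 0.00398), Crb3, a polarity gene, had 561, 72, 500 and 148 and fell by 2.05 ± 0.35 (adjusted p = 0.0112), and the protease inhibitor gene Spint2 had 8618, 2289, 8319 and 2761 and fell by 1.5 ± 0.13 (adjusted p = 0.00249). Those that rose included the vitamin D receptor gene Vdr (0.91), the polarity gene Pals1 (0.70) and the claudin gene Cldn4, which had 1, 563, 1 and 152 counts. The mesenchymal list holds genes known to rise in EMT, so its direction was set when it was chosen and is no independent support. Of its 20 tested genes 17 rose (85%, against 23.1% of all genes) and 1 fell (5%, against 25.4%). The median was 2.67, which was the same with genes of 3 or fewer counts set to that floor. Pdgfrb (7.80), Tnc (7.40) and Mmp9 (6.92) rose most, with Pdgfrb and Mmp9 at 0 or 1 counts at 0 h. The gene that fell was S100a4, a calcium-binding protein gene (-1.44 ± 0.09, adjusted p = 0.00121), and Vim, which encodes the intermediate filament vimentin (0.16 ± 0.08), and the receptor kinase gene Axl (-0.12 ± 0.08) did not pass. S100a4, Vim and Axl were named after their values were seen.

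**Figure D5:**
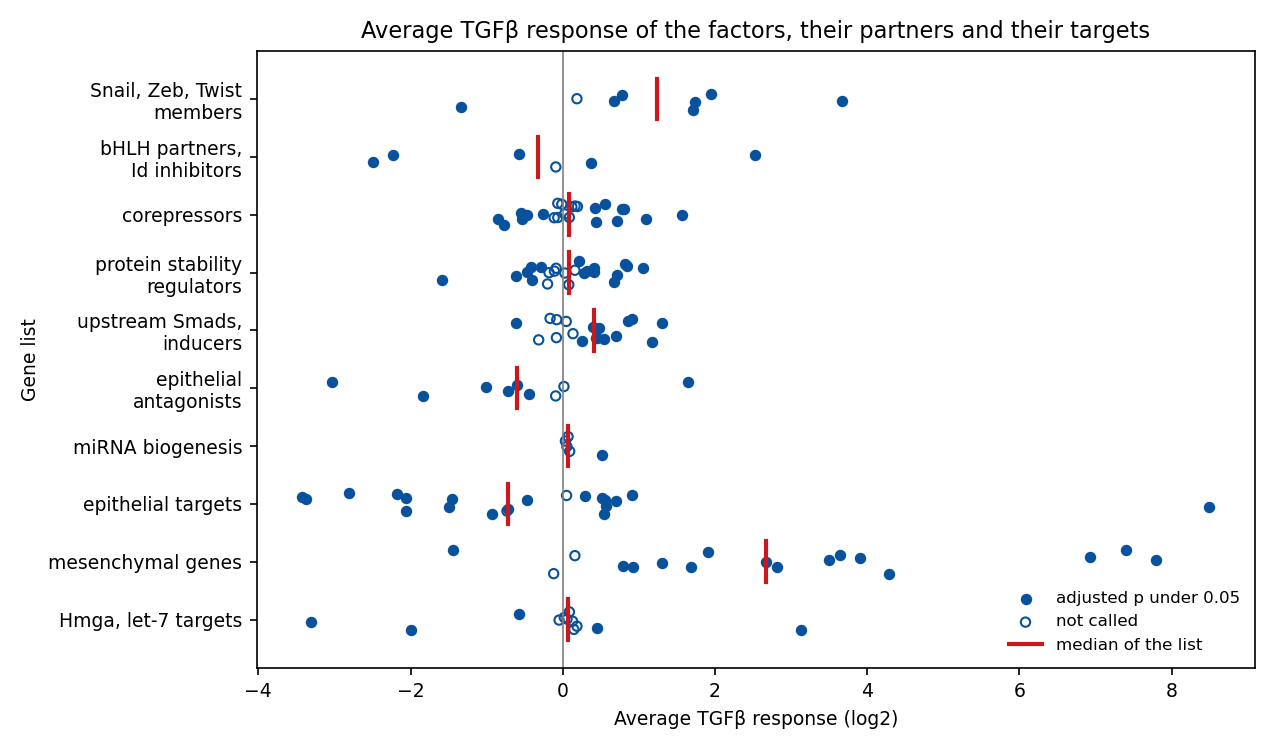
Average TGFβ response (log2) of the tested genes at 1 CPM or more in each list, filled where adjusted p was under 0.05 in edgeR's quasi-likelihood test, with each list's median as a red bar. The median is 1.24 for the members, -0.60 for the epithelial antagonists, -0.72 for the epithelial targets and 2.67 for the mesenchymal genes.

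Sequences upstream of the transcription starts were read for the members and these targets, because Snail, Zeb and Twist proteins bind E-boxes there and Snai1 is known to act on its own promoter. RefSeq starts (GRCm38.p6) were matched for 6 of the 9 members and 24 of the 36 targets, and the 250 bases before the most upstream start of each gene were searched on both strands. The same kind of window was taken for all 27025 genes with a RefSeq start, whether or not they were counted here. CANNTG was found in 66.1% of these windows, and CACCTG or CAGGTG, which is contained in it, in 17.1%. Among the members, Snai1 and Tcf3 had a CANNTG match and Snai1 alone had CACCTG or CAGGTG, with its first base 126 bases before the start. Of the 24 targets 15 had CACCTG or CAGGTG. The targets were listed as repressed by Snail or Zeb, which bind these letters, so a share above that of all genes is no independent support. By call, the targets with a match included 6 of the 9 that fell (Tjp3, Crb3, Patj, Muc1, Gjb2 and Spint2). They also included 5 of the 6 that rose (Cldn4, Krt8, Krt18, F11r and Vdr), so the letters were present in targets of both directions. Ocln, Tjp1 and Marveld2 fell and Jup rose without such a match. Crb3 and Spint2 had 3 matches each, the most among the targets that fell, so their windows below are not typical of those targets. A match is a description of the sequence and not a binding site.

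The windows shown are those of the strongest riser (Snai1), another riser with no E-box in the window (Zeb2), the member that fell (Twist2), a pair of targets that fell (Crb3 and Spint2) and the target that rose from 1 count (Cldn4), each 5′ to 3′ on the gene's strand with CANNTG matches in capitals. They lie at chr2:167537945-167538194 (plus), chr2:45117443-45117692 (minus), chr1:91801211-91801460 (plus), chr17:57061951-57062200 (plus), chr7:29281978-29282227 (minus) and chr5:134946935-134947184 (minus), in that order.
Snai1: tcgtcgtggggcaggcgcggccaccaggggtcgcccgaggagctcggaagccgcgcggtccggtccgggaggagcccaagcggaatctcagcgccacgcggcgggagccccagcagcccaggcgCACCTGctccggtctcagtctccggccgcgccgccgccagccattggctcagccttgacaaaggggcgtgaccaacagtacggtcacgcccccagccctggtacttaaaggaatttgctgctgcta
Zeb2: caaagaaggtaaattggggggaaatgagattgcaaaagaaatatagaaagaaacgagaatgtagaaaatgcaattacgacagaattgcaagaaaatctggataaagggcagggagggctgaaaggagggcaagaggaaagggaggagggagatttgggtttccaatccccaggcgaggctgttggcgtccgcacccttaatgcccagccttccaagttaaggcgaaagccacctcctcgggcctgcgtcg
Twist2: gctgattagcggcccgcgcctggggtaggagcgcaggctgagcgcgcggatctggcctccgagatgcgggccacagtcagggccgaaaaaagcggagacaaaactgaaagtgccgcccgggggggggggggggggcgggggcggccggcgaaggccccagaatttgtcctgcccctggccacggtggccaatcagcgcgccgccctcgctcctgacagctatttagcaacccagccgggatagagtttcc
Crb3: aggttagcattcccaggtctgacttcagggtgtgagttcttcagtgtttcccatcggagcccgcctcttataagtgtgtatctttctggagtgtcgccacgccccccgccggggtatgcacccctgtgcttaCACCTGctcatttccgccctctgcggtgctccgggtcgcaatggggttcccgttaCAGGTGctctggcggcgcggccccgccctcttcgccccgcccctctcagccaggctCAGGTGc
Spint2: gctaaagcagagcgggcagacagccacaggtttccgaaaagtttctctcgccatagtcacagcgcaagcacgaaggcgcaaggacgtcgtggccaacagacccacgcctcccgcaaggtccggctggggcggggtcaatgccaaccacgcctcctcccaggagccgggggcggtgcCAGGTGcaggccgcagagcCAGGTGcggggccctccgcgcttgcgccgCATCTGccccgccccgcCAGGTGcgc
Cldn4: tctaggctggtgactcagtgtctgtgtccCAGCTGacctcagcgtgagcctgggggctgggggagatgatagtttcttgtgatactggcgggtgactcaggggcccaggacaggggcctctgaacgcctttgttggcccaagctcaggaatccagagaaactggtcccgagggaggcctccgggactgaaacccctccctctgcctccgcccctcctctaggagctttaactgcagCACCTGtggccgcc
Crb3 holds 3 matches of CACCTG or CAGGTG, 118, 63 and 7 bases before the start, and Spint2 holds 3 of CAGGTG, 74, 55 and 9 bases before it, besides 1 CATCTG. Cldn4 holds CACCTG 14 bases before its start and CAGCTG 221 bases before it.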

How the data were processed

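Total RNA was depleted of ribosomal RNA, per the labels' protocols. Per the submitters' processing notes, FastQC, STAR, HTSeq and DESeq2 were used with genome build mm10. The sources used here give no versions, annotation release or strand setting. The authors deposited HTSeq counts per gene and log2 normalized values, which match log2(count / DESeq2 size factor + 1). The counts were analysed, and the log2 table was used only to check the columns.

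The table held 21971 genes and 4 construct rows, which were left out of library sizes and tests. Symbols and exon lengths came from GENCODE M21 (GRCm38, the same build as mm10), with 21889 genes matched. CPM used TMM factors of edgeR 4.0.16 (R 4.3.3). The additive model (line and TGFβ) was fitted to 14305 genes that passed filterByExpr. Calls were at an adjusted p under 0.05, and SE is the change divided by the square root of F. With 1 residual degree of freedom, a response that differs between lines counts as noise. Ratios between single libraries have no test. They were counted when at least 2-fold on log2 CPM with a prior count of 2, at a mean of 1 CPM or more, with a 95% counting interval that excludes 1. Those intervals are exact and conditional on the summed counts for a pair and use Poisson variances where responses are compared. All counting intervals cover counting error only. The code was tested on simulated data.

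All members were named, and from each list up to 3 called genes at each end at a mean of 1 CPM or more. Cdh1, the Id genes, Esrp1, Ovol1, Ovol2, Grhl2 and genes overlapping a member were named whatever their values, with the 3 genes nearest to each member. Members and lists were chosen with earlier results of these data known. DESeq2 1.42.0 was one alternative test.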

Additional observations from a re-analysis of the deposited data

How the results depend on the processing

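The count of members called in the average TGFβ response was 7 in the reported fit and 7 or 8 over DESeq2 size factors, upper-quartile factors, removal of mitochondrially encoded genes, no filter on low counts, DESeq2's Wald test and robust empirical Bayes. The 8 came from Tcf3 under upper-quartile factors (0.25, adjusted p = 0.0310). Over these alternatives Snai1 ranged from 3.62 to 3.73 on the log2 scale with adjusted p of at most 0.00651, and Twist2 from -1.35 to -1.27 with adjusted p of at most 0.0103. For Snai1 the average line difference ranged from -0.93 to -0.67 and was called in none of these fits. The line difference of Twist2, which was not called (-0.01), changed sign to 0.0044 under upper-quartile factors and 0.0092 under DESeq2's Wald test. Counts of members at 2-fold or more were the same with other scalings, a prior count of 0.5 and no filter on the mean, 4 or 5 for TGFβ within a line, 0 between lines at 0 h, and 1 at 24 h and for the responses. Over all genes, lines differed on average in 0 genes as reported, in 28 higher and 81 lower in Vp16-TRF1ΔN without a filter on low counts, in 12 and 34 by DESeq2, and in 0 and 4 with upper-quartile factors or without mitochondrially encoded genes. Without the filter on the mean, genes counted as higher and lower went from 989 and 1285 to 1879 and 1944 for TGFβ in TRF1ΔN, from 815 and 1071 to 1368 and 1605 in Vp16-TRF1ΔN, from 21 and 49 to 179 and 206 between lines at 0 h, from 249 and 139 to 417 and 483 at 24 h, and from 198 and 102 to 260 and 188 for the responses. No paired analysis was possible because each group held 1 library, and for the same reason no replicate could be left out. Depth limits Twist1, with 1 or 2 counts in each library, and the 0 h level of Snai1, with 28 and 30 counts, which sets the width of its response intervals.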
